A study of Homo sapiens with 5 samples.

Results

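GABRA2, GABRA3, GABRA4, GABRA5, GABRB1, GABRB2 and GABRG3 encode subunits of the GABA-A receptor, and each was found by its symbol as 1 row of the count table in all 8 libraries. These 7 genes are 7 of 33538 in the tables of D22, D24 and D26 and of 36601 in those of the tagged conditions. The study followed WA09 cells, a wild-type line of human embryonic stem cells, through differentiation into GnRH neurons by single-cell RNA sequencing. D0 was the undifferentiated cells, D5_dSMADi and D10_dSMADi had dual SMAD inhibition, and D5_XAV939 and D10_XAV939 had in addition XAV939, a tankyrase inhibitor that lowers Wnt signalling. D22, D24 and D26 were cultures without XAV939 that had gone on to FGF8 and the Notch inhibitor DAPT. Each condition was 1 library of 1 cell line, so the conditions have no replicates and no test was made, and every interval below is a 95% interval that covers counting error only.

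The GABA-A receptor is a pentameric chloride channel that GABA opens. Most receptors join α subunits with β subunits and 1 further subunit such as γ, GABA binds between α and β, and the α and γ subunits shape the response to benzodiazepines. GABA often depolarizes young neurons, since they hold much chloride, and GnRH neurons are among the neurons for which an excitatory action of GABA through this receptor has been described.

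Cells of D22, D24 and D26 were put in classes by UMIs (counted RNA molecules) of a few genes, none of them a receptor gene. GNRH1-high cells had GNRH1, the gene of the GnRH peptide, at or above 3000 CPM (CPM being the UMIs of a gene over all UMIs of the cell or group, scaled to one common total). DLX-positive GNRH1-low cells had at least 3 UMIs of DLX1, DLX2 and DLX5 together, which encode transcription factors of forebrain GABAergic neurons. TBR1/PPP1R17-positive cells had at least 3 UMIs of TBR1 and PPP1R17 together and belonged to neither of the others. Cells that met the TBR1/PPP1R17 limit and 1 of the others were set aside as mixed. Cells that met none of these limits but had at least 3 UMIs of MKI67 and TOP2A together were called dividing. At D26 there were 828 GNRH1-high cells, of which 636 were DLX-positive, beside 591 DLX-positive GNRH1-low, 7462 TBR1/PPP1R17-positive and 289 mixed cells, and 1883 in none of the classes. At D24 the first 3 classes held 312, 133 and 5345 cells. D22 had 6 GNRH1-high cells, too few for a value, beside 742 DLX-positive GNRH1-low, 775 TBR1/PPP1R17-positive and 2123 dividing cells.

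The classes were described by markers that did not define them. The study had named GAD2, SLC32A1, SLC17A6, LHX1, LHX5 and LHX9 as markers of its clusters in these same libraries. The GABAergic and glutamatergic values are therefore no independent check of the classes. At D26 all 6 GABAergic markers were above 3 UMIs in each of the 3 classes, but their summed level was 892 CPM in GNRH1-high, 1116 CPM in DLX-positive GNRH1-low and 6.0 CPM in TBR1/PPP1R17-positive cells. The 5 glutamatergic markers summed to 66.0, 42.4 and 1034 CPM in the same order, led by EMX2 and with SLC17A6, the vesicular glutamate transporter, at 6.40, 3.12 and 67.3 CPM. The 5 neuron markers differed little, at 10109, 9217 and 10494 CPM, while the 5 neural progenitor markers were at 925, 911 and 406 CPM. Mesenchymal markers were at or below 0.195 CPM and astrocyte markers at or below 0.405 CPM in all 3. Over the kept cells the libraries held between 58073098 and 130440502 UMIs, with a median per cell of 24290.5 to 69455.5 in the tagged conditions and 7180 to 12179 at D22 to D26. D22, D24 and D26 shared 27 to 37 cell barcodes pairwise, the tagged conditions shared 0, and a tagged and a later library shared 1 to 15.

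By GENCODE 44 on GRCh38, GABRA2 (chr4:46243548-46475230, minus strand), GABRA4 (chr4:46918900-46993581, minus strand) and GABRB1 (chr4:46993723-47426447, plus strand) lie with GABRG1 (chr4:46035769-46124054, minus strand) in 1 cluster of 4 subunit genes over 1390.7 kb. GABRA4 and GABRB1 point away from each other, with 141 bp between their outermost starts. GABRB2 (chr5:161288429-161549044, minus strand) is on chromosome 5, GABRA5 (chr15:26866911-26949208, plus strand) and GABRG3 (chr15:26971181-27541984, plus strand) are neighbours on chromosome 15, and GABRA3 (chrX:152166234-152451315, minus strand) is on chromosome X. GABRA5 and GABRB2 each overlap 1 annotated gene on the other strand, GABRG3 overlaps 5 there and 3 on its own strand, GABRA2 overlaps 1 on each strand, and GABRA3 overlaps 1 on the other and 4 on its own. Whether the counting used the strand was not stated in the sources used here.

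The 250 bases before the RefSeq start (build GRCh38.p14) are shown for the 3 subunits of the chromosome 4 cluster, which were higher in TBR1/PPP1R17-positive cells, and for GABRB2, which was higher in the GNRH1-high and DLX-positive cells. They are written 5′ to 3′ on the gene's strand, GABRA2 at the outermost of its 3 listed starts, and capitals mark GCATGC. The RefSeq starts used for GABRA2, GABRB1 and GABRB2 lie inside the GENCODE spans above. The GABRB1 window is therefore not at the start that lies 141 bp from GABRA4.
GABRA2 (chr4:46390301-46390550, minus strand): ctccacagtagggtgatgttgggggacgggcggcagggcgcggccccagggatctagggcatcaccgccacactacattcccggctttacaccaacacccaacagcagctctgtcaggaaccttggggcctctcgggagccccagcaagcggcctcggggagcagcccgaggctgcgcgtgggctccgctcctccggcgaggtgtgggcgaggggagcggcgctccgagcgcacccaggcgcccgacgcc
GABRA4 (chr4:46993582-46993831, minus strand): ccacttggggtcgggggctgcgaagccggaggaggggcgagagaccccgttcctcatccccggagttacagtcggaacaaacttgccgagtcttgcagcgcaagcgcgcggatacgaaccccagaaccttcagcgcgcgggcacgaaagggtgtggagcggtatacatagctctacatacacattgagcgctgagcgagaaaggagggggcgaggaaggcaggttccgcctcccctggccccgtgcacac
GABRB1 (chr4:47031317-47031566, plus strand): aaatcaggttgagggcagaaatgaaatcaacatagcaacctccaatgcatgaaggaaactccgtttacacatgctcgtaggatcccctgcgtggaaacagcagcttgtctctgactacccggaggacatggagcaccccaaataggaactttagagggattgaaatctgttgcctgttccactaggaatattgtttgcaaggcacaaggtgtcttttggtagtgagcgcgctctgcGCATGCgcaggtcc
GABRB2 (chr5:161546726-161546975, minus strand): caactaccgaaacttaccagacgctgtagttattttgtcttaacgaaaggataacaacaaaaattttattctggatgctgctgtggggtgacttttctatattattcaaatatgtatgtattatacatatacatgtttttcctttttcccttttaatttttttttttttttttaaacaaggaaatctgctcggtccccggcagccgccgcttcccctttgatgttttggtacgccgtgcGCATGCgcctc
RefSeq starts were listed for 5 of the 7 members, 7 starts in all. GCATGC was in 2 of these windows, those of the paralogous GABRB1 and GABRB2, where it ended 8 and 5 bases before the start, and in 6.21% of 35116 promoter windows of this length. This motif was chosen after the sequences were seen, and it reads the same on both strands, as does TAATTA, a core recognized by homeodomain factors such as DLX. TAATTA was in 0 of the 7 windows and in 4.35% of all promoters, and GGTGTGA, a T-box core, searched on both strands, was in 0 of the 7 and in 2.76% of all. The windows of GABRA2, GABRA4, GABRB1 and GABRB2 held 71.2%, 63.6%, 49.2% and 38.0% G and C, against a median of 58.0%. These matches are descriptions of letters, and binding was not measured here.

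**Figure D1:**
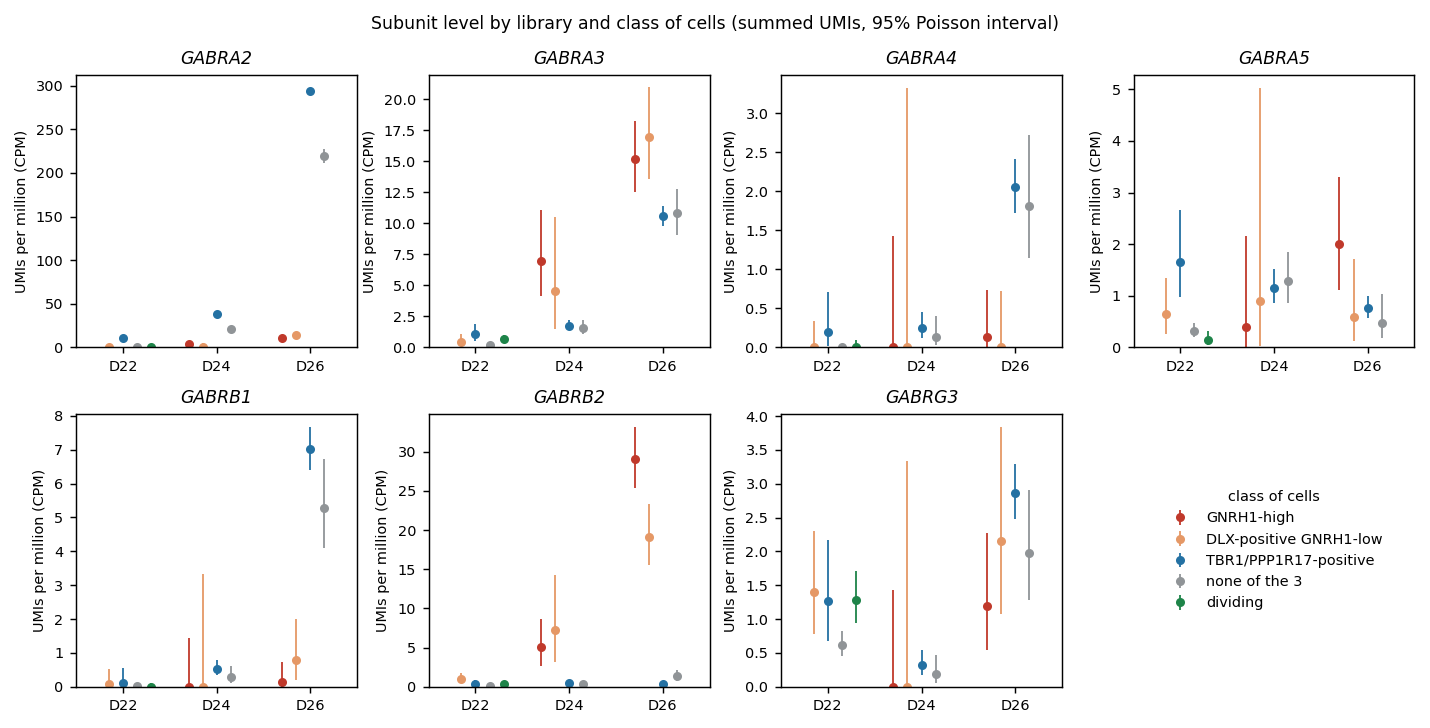
Level of each subunit, in CPM (y axis from 0), at D22, D24 and D26 (x axis) by class of cells. Points are UMIs summed over the cells of a class in 1 library and lines are 95% Poisson intervals. GABRA2 reached 294 CPM in TBR1/PPP1R17-positive cells at D26 against 10.8 CPM in GNRH1-high cells, and GABRB2 stood the other way, at 0.405 against 29.1 CPM. GNRH1-high cells of D22 (6 cells) are not drawn.

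GABRA2 encodes the α2 subunit, an α subunit of the developing forebrain. Over all kept cells it was at 0.896 CPM at D0, 1.10 in D5_dSMADi, 1.33 in D5_XAV939, 1.73 in D10_dSMADi, 1.24 in D10_XAV939, 1.08 at D22, 30.6 at D24 and 242 at D26. D22 to D26 were counted on another annotation than the tagged conditions, so levels are compared only within each set. Among the tagged conditions GABRA2 thus stayed within 0.896 to 1.73 CPM, and among D22, D24 and D26 it was higher on each later day.

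At D26 GABRA2 stood at 294 CPM (289.8 to 297.9) in TBR1/PPP1R17-positive cells, 10.8 CPM (8.58 to 13.4) in GNRH1-high cells and 14.1 CPM (11 to 17.7) in DLX-positive GNRH1-low cells. Its level was 27.2-fold higher (21.9 to 34.3) in TBR1/PPP1R17-positive than in GNRH1-high cells and 20.9-fold higher (16.6 to 26.7) than in DLX-positive GNRH1-low cells. The last 2 classes did not differ beyond counting error, with a log2 ratio of -0.38 (-0.86 to 0.10). At D24 the levels were 38.1, 3.88 and 0.903 CPM, from 1660, 10 and 1 UMIs, in the same order, and at D22 TBR1/PPP1R17-positive cells had 116 UMIs (11.3 CPM) and DLX-positive GNRH1-low cells 0, where 3 counts would be 0.279 CPM. These D22 classes also differed in maturity markers, in that DLX-positive GNRH1-low cells held dividing cell markers at 1580 CPM against 196 CPM in TBR1/PPP1R17-positive cells, neural progenitor markers at 4141 against 1367 CPM and neuron markers at 1273 against 9007 CPM, and their part in the D22 difference was not tested. The study itself named GABRA2 among the markers of glutamatergic cells in these libraries, so its direction here is not independent evidence.

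GABRA2 in GNRH1-high cells, relative to TBR1/PPP1R17-positive cells, lay within the range of the glutamatergic markers. The log2 ratio of GNRH1-high over TBR1/PPP1R17-positive was -4.77 (-5.10 to -4.45) for GABRA2, and it ran from -5.19 for LHX1 to -3.39 for SLC17A6 over the 5 glutamatergic markers. The 5 glutamatergic markers summed to 147 CPM in DLX-negative and 46.1 CPM in DLX-positive GNRH1-high cells, and their part in the result was not tested. Within GNRH1-high cells, the 192 DLX-negative ones held GABRA2 at 23.1 CPM (16.0 to 32.3) and the 636 DLX-positive ones at 7.79 CPM (5.73 to 10.4) at D26, while at D24 the DLX-negative ones held 3.28 CPM (0.677 to 9.60) from 3 UMIs and the DLX-positive ones 4.21 CPM (1.69 to 8.68) from 7 UMIs. Few cells carried these values, since the 34 UMIs of the DLX-negative cells lay in 15 cells, with 11 in 1 of them, and 93.8% of the 81 UMIs of all GNRH1-high cells lay in the 5% of cells with the most. The Poisson intervals do not cover this spread between cells. In 3 ranges of GNRH1, chosen after the values were seen, GABRA2 was at 22.3 CPM in the 177 cells with GNRH1 from 3000 to 10000 CPM, 7.02 CPM in the 258 cells up to 30000 and 8.54 CPM in the 393 cells above. Mixed cells, which had a median of 17104 UMIs against 9318.5 in GNRH1-high cells and 8653.5 in TBR1/PPP1R17-positive cells, stood between the classes at 154 CPM. With mixed cells put back by their GNRH1 and DLX status, the log2 ratio of GABRA2 at D26 over TBR1/PPP1R17-positive cells was -2.44 for GNRH1-high cells and -2.58 in place of -4.39 for DLX-positive GNRH1-low cells, so setting them aside widened the difference.

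GABRA2 UMIs were spread over many TBR1/PPP1R17-positive cells of D26, where the 5% of cells with the most held 17.3% of them. After each cell was thinned to 1500 UMIs, 34.3% (33.2 to 35.4) of these cells held a GABRA2 UMI, against 2.05% (1.2 to 3.27) of GNRH1-high and 2.03% (1.05 to 3.52) of DLX-positive GNRH1-low cells. Unthinned, the shares were 83.0%, 5.68% and 8.29%, at medians of 8653.5, 9318.5 and 8579 UMIs. In another library, that of D22, 0 of 2123 thinned dividing cells held it, which allows a share of up to 0.141% of cells with a UMI (3 cells), and 0.236% did unthinned, at a median of 15511 UMIs. That library held GABRA2 at 1.08 CPM against 242 CPM at D26, so its share is no background for D26, which had 3 dividing cells, too few for a share of its own. No cell of D26 held more than 22 GABRA2 UMIs. Splitting TBR1/PPP1R17-positive cells of D26 by their TBR1 and PPP1R17 level, in ranges chosen after seeing the values, gave 289 CPM below 500 CPM of these genes, 294 from 500 to 1000, 296 from 1000 to 2000 and 296 above 2000, with overlapping intervals. At D24 the same ranges gave 26.1, 39.1, 48.6 and 49.0 CPM.

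The increase from D24 to D26 held within the class. GABRA2 in TBR1/PPP1R17-positive cells was 3.36-fold (2.79 to 4.10) higher at D24 than at D22 and 7.70-fold (7.33 to 8.10) higher at D26 than at D24. At D22 its 116 UMIs lay in 61 of 775 cells, and the 5% of cells with the most held 81.0% of them. The intervals do not cover this spread. Neural progenitor markers in the class were at 1367 CPM at D22 and 420 CPM at D24, and neuron markers at 9007 and 11188 CPM. Their part in the D24 over D22 ratio was not tested. The share of cells in this class was 8.14%, then 58.7% and then 67.5% over these days, so the level over the whole library also moved with composition. Cells of no class went from 21.1 CPM at D24 to 219 CPM at D26, below the TBR1/PPP1R17-positive cells by more than counting error. At D26 they held glutamatergic markers at 699 CPM, against 1034 CPM in TBR1/PPP1R17-positive and 66.0 CPM in GNRH1-high cells. IRX1, IRX2, CRABP1 and NR2F1 summed to 389 CPM in them and 93.7 CPM in TBR1/PPP1R17-positive cells. Their median was 6925 UMIs against 8653.5, and the TBR1/PPP1R17 limit is in UMIs, so shallower cells of that kind may be among them. Each day is 1 library, and the day and the library cannot be told apart.

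GABRB1, the β1 subunit, and GABRA4, the α4 subunit, followed the class pattern of GABRA2 at a small number of UMIs. GABRB1 had 486 UMIs in TBR1/PPP1R17-positive cells of D26, or 7.02 CPM (6.41 to 7.68), 1 UMI in GNRH1-high cells (0.133 CPM) and 4 UMIs in DLX-positive GNRH1-low cells (0.781 CPM). The ratio of TBR1/PPP1R17-positive over GNRH1-high cells was 52.7, with a counting interval of 9.41 to 2085, and over DLX-positive GNRH1-low cells it was 9.0 (3.49 to 33.1). GABRA4 had 142 UMIs in TBR1/PPP1R17-positive cells (2.05 CPM, 1.73 to 2.42) and 1 UMI in GNRH1-high cells, a ratio of 15.4 (2.72 to 612). With mixed cells put back, the log2 ratio of GNRH1-high over TBR1/PPP1R17-positive cells for GABRB1 was -2.87 in place of -5.72, and after thinning neither gene had a UMI in GNRH1-high cells. DLX-positive GNRH1-low cells held 0 UMIs of GABRA4. With 3 counts in place of 0, the level was 3.50-fold higher in TBR1/PPP1R17-positive cells, and the counting interval reached down to 2.81-fold.

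GABRB1 had 4, 29 and 576 UMIs in the libraries of D22, D24 and D26, and GABRA4 had 2, 14 and 170. Within TBR1/PPP1R17-positive cells the level at D26 over D24 was 13.3-fold (8.76 to 21.2) for GABRB1 and 8.12-fold (4.4 to 16.6) for GABRA4. At D24 GNRH1-high and DLX-positive GNRH1-low cells held 0 UMIs of either, but at that depth 3 counts would be 1.16 and 2.71 CPM, above the 0.528 CPM of GABRB1 and 0.253 CPM of GABRA4 in TBR1/PPP1R17-positive cells, so a difference was not detectable. In D0, D5_dSMADi, D5_XAV939, D10_dSMADi and D10_XAV939, GABRB1 had 3, 0, 3, 15 and 1 UMIs and GABRA4 had 27, 1, 3, 9 and 2. GABRG1, the γ1 subunit and the remaining gene of the cluster, is no member but stood with them at D26, with 416 UMIs (6.01 CPM) in TBR1/PPP1R17-positive cells, 1 UMI in GNRH1-high cells and 2 in DLX-positive GNRH1-low cells.

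Within the TBR1/PPP1R17-positive cells of D24, cells with a GABRA2 UMI held more of GABRB1 and GABRG1 than those without. The 293 cells that held a GABRA2 UMI after thinning had GABRB1 at 3.91 CPM (1.79 to 7.42), against 0.340 CPM (0.186 to 0.570) in the 5052 that did not, and GABRG1 at 3.91 CPM (1.79 to 7.42) against 1.09 CPM (0.796 to 1.46). GABRA4 was at 1.74 CPM (0.473 to 4.45) from 4 UMIs against 0.170 CPM (0.0683 to 0.350) from 7 UMIs. Of the members elsewhere in the genome, GABRB2 was at 1.30 CPM (0.269 to 3.81) from 3 UMIs against 0.412 CPM (0.240 to 0.660), GABRG3 at 0.869 CPM from 2 UMIs against 0.291 CPM, GABRA3 at 2.61 CPM (0.957 to 5.67) against 1.70 CPM (1.32 to 2.15) and GABRA5 at 0.869 CPM from 2 UMIs against 1.16 CPM. The intervals overlapped for these 4 members and not for the 3 genes of the cluster, but with 2 to 6 UMIs each in the cells with GABRA2, the 4 members could not be told from the cluster genes in this respect, and the difference between them was not tested. At D26 the same split gave GABRB1 at 7.93 CPM (6.83 to 9.16) against 6.56 CPM (5.84 to 7.35) and GABRG1 at 6.48 against 5.77 CPM, with overlapping intervals. GABRA4 was at 2.56 CPM (1.95 to 3.29) against 1.79 CPM (1.43 to 2.23) at D26, which overlap too. Median UMIs were 7218 and 7501 at D24 and 8581 and 8675 at D26. At D24 GABRA2 was also higher with more TBR1 and PPP1R17, at 26.1 CPM in the lowest range and 49.0 CPM in the highest. The part of this in the split was not tested.

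GABRB2, the β2 subunit, stood the other way. Over all kept cells its level was 0.329 CPM at D0, 0.151 in D5_dSMADi, 0.300 in D5_XAV939, 0.190 in D10_dSMADi, 0.276 in D10_XAV939, 0.261 at D22, 0.684 at D24 and 4.34 at D26. At D26 it stood at 29.1 CPM (25.3 to 33.2) in GNRH1-high cells, 19.1 CPM (15.5 to 23.3) in DLX-positive GNRH1-low cells and 0.405 CPM (0.269 to 0.585) in TBR1/PPP1R17-positive cells, from 218, 98 and 28 UMIs. The 218 UMIs lay in 135 of 828 GNRH1-high cells, with 10 in 1 of them. The 5% of cells with the most held 57.3% of the UMIs in GNRH1-high and 65.3% in DLX-positive GNRH1-low cells. The intervals of levels and ratios of GABRB2 do not cover this spread between cells. The level in GNRH1-high cells was 71.8-fold (48.3 to 111) that in TBR1/PPP1R17-positive cells, and the level in DLX-positive GNRH1-low cells was 47.3-fold (30.8 to 74.8). The log2 ratio of 6.17 against TBR1/PPP1R17-positive cells lay among those of the 6 GABAergic markers, which ran from 5.94 for GAD1 to 8.22 for DLX6-AS1.

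Among the cells with GABAergic markers, GABRB2 differed by less than 2-fold. GNRH1-high cells exceeded DLX-positive GNRH1-low cells by a log2 ratio of 0.60 (0.25 to 0.96) at D26, although after thinning the value was -0.12 and the shares of cells with a UMI were 2.78% and 3.05%. GNRH1-high cells that were DLX-positive held 31.8 CPM (27.5 to 36.7) and those that were DLX-negative 17.7 CPM (11.5 to 25.9). By GNRH1 level, GABRB2 was at 19.0 CPM from 3000 to 10000 CPM of GNRH1, 32.5 CPM up to 30000 and 31.0 CPM above. Unthinned, 16.3% of GNRH1-high cells, 10.8% of DLX-positive GNRH1-low cells and 0.348% of TBR1/PPP1R17-positive cells of D26 held a UMI. No share of background was available at D26, where 3 cells were dividing.

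The class difference in GABRB2 was present at D24 with few UMIs. GNRH1-high cells had 13 UMIs (5.05 CPM, 2.69 to 8.63), of which 12 were in DLX-positive cells, DLX-positive GNRH1-low cells had 8 (7.23 CPM, 3.12 to 14.2) and TBR1/PPP1R17-positive cells 20 (0.460 CPM). The ratio of GNRH1-high over TBR1/PPP1R17-positive cells was 11 (5.02 to 23.2), and after thinning GNRH1-high cells of D24 held 0 UMIs. From D24 to D26 the level in GNRH1-high cells went up 5.76-fold (3.30 to 10.99) and in DLX-positive GNRH1-low cells 2.65-fold (1.29 to 6.30), while in TBR1/PPP1R17-positive cells the ratio was 0.881 (0.479 to 1.65).

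**Figure D2:**
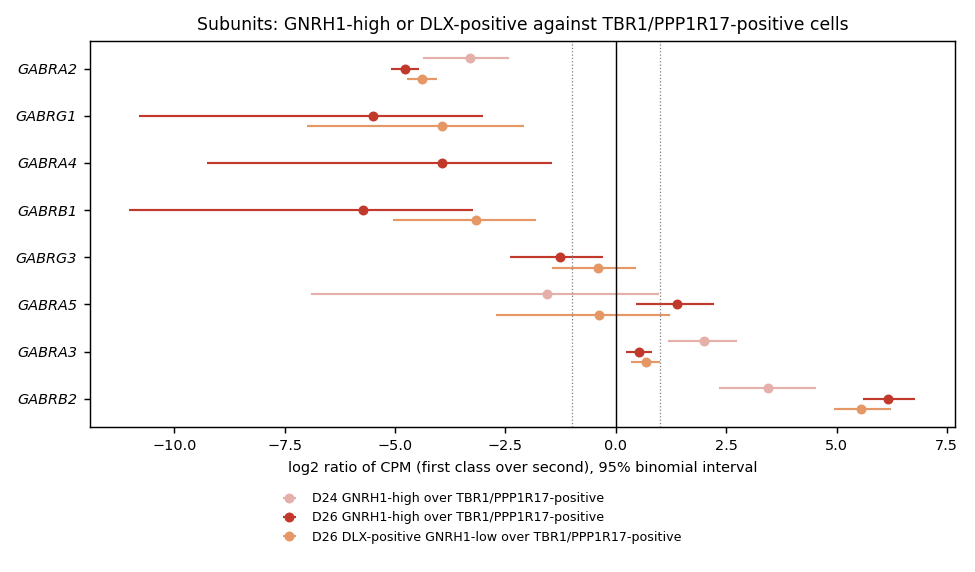
Log2 ratio of the level of each member and GABRG1 (x axis) in GNRH1-high cells of D24 and D26 or DLX-positive GNRH1-low cells of D26 over TBR1/PPP1R17-positive cells of the day, with 95% binomial intervals of the UMI split and dotted lines at 2-fold. Comparisons with 0 UMIs in a class or under 20 UMIs in all are not drawn. At D26 the genes of the chromosome 4 cluster lie left of 0, at -4.77 for GABRA2, and GABRB2 lies right of it, at 6.17.

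GABRA3, the α3 subunit, was present in every class of D26 within a narrow range. Over all kept cells it was at 2.86 CPM at D0, 1.97 in D5_dSMADi, 4.09 in D5_XAV939, 1.88 in D10_dSMADi, 2.79 in D10_XAV939, 0.414 at D22, 1.95 at D24 and 11.5 at D26. At D26 DLX-positive GNRH1-low cells held 17.0 CPM (13.6 to 21.0), GNRH1-high cells 15.2 CPM (12.5 to 18.3) and TBR1/PPP1R17-positive cells 10.6 CPM (9.83 to 11.4), and the first 2 did not differ beyond counting error. The ratio of GNRH1-high over TBR1/PPP1R17-positive cells was 1.44 (1.17 to 1.75) at D26 and 4.00 (2.25 to 6.76) at D24, where the levels were 6.99 CPM from 18 UMIs and 1.75 CPM from 76 UMIs. From D24 to D26 the level went up 6.06-fold (4.78 to 7.78) in TBR1/PPP1R17-positive and 2.17-fold (1.32 to 3.80) in GNRH1-high cells.

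GABRA5, the α5 subunit, was highest at D0, in undifferentiated cells, among the tagged conditions. It stood at 9.42 CPM (8.74 to 10.1) at D0, 0.828 in D5_dSMADi, 0.980 in D5_XAV939, 0.711 in D10_dSMADi, 1.17 in D10_XAV939, 0.399 at D22, 1.15 at D24 and 0.855 at D26. D0 was 11.4-fold (8.83 to 14.9) above D5_dSMADi, and after thinning to 10000 UMIs 9.33% of D0 cells held a UMI against 0.909% of D5_dSMADi cells. The 715 UMIs of D0 were spread over 48.1% of its 1008 cells, with at most 6 in a cell. At D26 GNRH1-high cells held 2.00 CPM (1.12 to 3.30) from 15 UMIs and TBR1/PPP1R17-positive cells 0.766 CPM (0.574 to 1.00) from 53 UMIs, a ratio of 2.61 (1.37 to 4.70), while DLX-positive GNRH1-low cells had 3 UMIs.

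GABRG3, the γ3 subunit, was lowest at D0 among the tagged conditions, where GABRA5 was highest. Its level was 0.369 CPM (0.245 to 0.533) at D0, 3.95 in D5_dSMADi, 5.24 in D5_XAV939, 6.59 in D10_dSMADi and 7.59 in D10_XAV939, and 0.920 at D22, 0.257 at D24 and 2.66 at D26. D5_dSMADi was 10.7-fold (7.27 to 16.4) above D0. In TBR1/PPP1R17-positive cells it went from 1.27 CPM at D22 to 0.322 CPM at D24 and 2.86 CPM at D26. The class difference at D26 was modest, 2.86 CPM in TBR1/PPP1R17-positive against 1.2 CPM in GNRH1-high cells, from 198 and 9 UMIs, a ratio of 2.39 (1.23 to 5.29), and DLX-positive GNRH1-low cells held 2.15 CPM (1.07 to 3.84). After thinning, 0.375% and 0.362% of TBR1/PPP1R17-positive and GNRH1-high cells held a UMI (28 and 3 cells), and the log2 ratio went from -1.25 to -0.10. The interval of the GNRH1-high share, 0.0748% to 1.06%, is too wide to tell whether the difference in GABRG3 holds in thinned cells. With GNRH1-high cells taken from 10000 CPM of GNRH1, it was -0.94 and also within 2-fold.

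Counted over the members, 6 of 7 were past 2-fold between GNRH1-high and TBR1/PPP1R17-positive cells at D26. The 2 higher were GABRB2 and GABRA5, and the 4 lower were GABRA2, GABRB1, GABRA4 and GABRG3. After thinning, GABRG3 was within 2-fold, the bound of GABRA4 did not pass 2-fold and GABRA5 had under 20 UMIs in all. The members were chosen with earlier results of these data known, so shares over all genes are no neutral background for their counts. GABRA2 was also named by the study as a glutamatergic marker, and GABRA2, GABRA4 and GABRB1 lie in 1 cluster. A gene was counted if it had at least 20 UMIs over both classes, and of 15794 such genes 15.1% were past 2-fold, 4.55% higher and 10.5% lower. The median log2 ratio was -1.25 over the members and -0.14 over all these genes. Between DLX-positive GNRH1-low and TBR1/PPP1R17-positive cells at D26, 4 of 7 were past 2-fold, GABRB2 higher and GABRA2, GABRB1 and GABRA4 lower, against 13.6% of all genes, 5.59% higher and 8.04% lower. At D24 5 members had enough UMIs in either comparison. GNRH1-high over TBR1/PPP1R17-positive cells had 2 higher (GABRA3 and GABRB2) and 2 lower (GABRA2 and GABRA5), with 15.4% of all genes past 2-fold. GABRA5 was on 1 UMI against 50, with an interval that includes 0 (log2 -1.56, -6.90 to 0.98). DLX-positive GNRH1-low over TBR1/PPP1R17-positive cells had 2 higher (GABRB2 and GABRA3) and 1 lower (GABRA2, on 1 UMI), with 15.5%. There GABRA3 was on 5 UMIs with an interval that includes 0 (log2 1.37, -0.29 to 2.66). After thinning, 1 member was counted in each of these D24 comparisons, with fewer UMIs to count. GNRH1-high over DLX-positive GNRH1-low cells had 0 of 4 past 2-fold at D26, where 3.26% of all genes were, and 0 of 2 at D24, where 5.41% were. The comparisons against TBR1/PPP1R17-positive cells of a day share those cells.

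Between whole libraries, 5 of 6 members with enough UMIs were past 2-fold higher at D24 than at D22 and GABRG3 was lower, with 31.8% of all genes past 2-fold. Composition moved with these values, as TBR1/PPP1R17-positive cells went from 8.14% to 58.7% of cells and the dividing class from 22.3% to 0.45%. That class leaves out dividing cells that met another class limit, and DLX-positive GNRH1-low cells of D22 held dividing cell markers at 1580 CPM. Within TBR1/PPP1R17-positive cells, D24 over D22 was 1.62-fold (0.858 to 3.39) for GABRA3, 1.57-fold (0.465 to 8.24) for GABRB2, 0.691-fold (0.392 to 1.28) for GABRA5, 5.41-fold (0.878 to 223) for GABRB1 and 1.29-fold (0.282 to 12) for GABRA4, so for these 5 the counts within the class do not show a change. GABRG3 was lower within the class too, at 0.253-fold (0.110 to 0.585). After thinning, the log2 ratio of GABRB2 between the whole libraries was 0.65 in place of 1.39. From D24 to D26, 6 of 7 were past 2-fold higher and GABRA5 was not (log2 ratio -0.43, -0.89 to 0.02), with 17.1% of all genes past 2-fold. The median gene moved by 0.30 on the log2 scale from D24 to D26, and the median member by 2.98. Composition moved here too, with GNRH1-high cells from 3.43% to 7.49% and DLX-positive GNRH1-low cells from 1.46% to 5.35% of cells. Within TBR1/PPP1R17-positive cells GABRB2 was at 0.881-fold (0.479 to 1.65), while GABRA2, GABRA3, GABRA4, GABRB1 and GABRG3 were higher beyond counting error. GABRB2 was higher within GNRH1-high (5.76-fold) and DLX-positive GNRH1-low cells (2.65-fold).

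**Figure D3:**
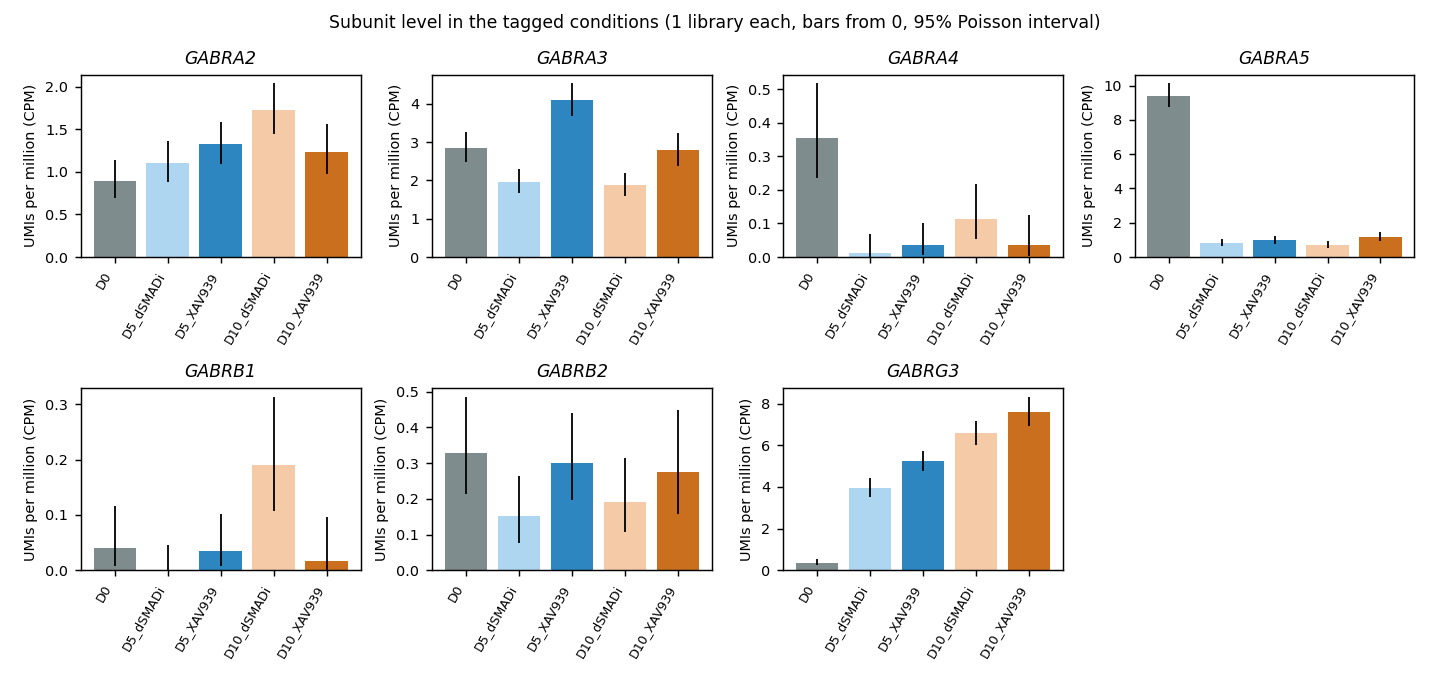
Level of each subunit, in CPM (y axis from 0), in the 5 tagged conditions, as bars for 1 library each with lines for 95% Poisson intervals. GABRA5 is at 9.42 CPM at D0 and at or below 1.17 CPM in the other conditions, GABRG3 goes from 0.369 to 7.59 CPM, and GABRA3 is higher with XAV939 at D5 and D10.

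XAV939 was given to ask what lower Wnt signalling does early in the differentiation. GABRA3 was higher with it on both days, by a log2 ratio of 1.06 (0.78 to 1.34) at D5, from 1.97 to 4.09 CPM, and of 0.57 (0.24 to 0.90) at D10, from 1.88 to 2.79 CPM. It was 1 of 5 members with enough UMIs that passed 2-fold at D5, where 5.24% of all genes did, and 0 of 5 passed at D10, where 9.45% did. GABRG3 was at log2 ratios of 0.41 (0.19 to 0.62) and 0.20 (0.02 to 0.39), GABRA5 at 0.24 (-0.24 to 0.73) and 0.72 (0.19 to 1.26), and GABRB2 at 0.99 (-0.04 to 2.11) and 0.53 (-0.58 to 1.65). GABRA2 was at 0.26 (-0.15 to 0.68) at D5 and -0.48 (-0.91 to -0.06) at D10. GABRB1 had 15 UMIs in D10_dSMADi and 1 in D10_XAV939. Cell type markers moved with XAV939 as well, and their part in these values was not tested. At D5 the GABAergic markers summed to 20.6 CPM without and 2.05 CPM with it, the glutamatergic to 105 and 19.5 CPM and the dividing cell markers to 1181 and 1508 CPM. SLC17A6 had 0 UMIs in D5_dSMADi, so the glutamatergic sum there came from LHX1, LHX5, LHX9 and EMX2. The study calls EMX2 a dorsal telencephalic marker and reports it lower with XAV939. These sums at D5 and D10 are levels of the listed genes, and no neuron type was identified by them. At D10 the GABAergic markers were at 59.1 and 12.4 CPM, the glutamatergic at 98.0 and 70.4 CPM, the neuron markers at 320.1 and 512 CPM and the dividing cell markers at 1598 and 2046 CPM. Of the 6 GABAergic markers, 3 were above 3 UMIs in D10_dSMADi and 4 in D10_XAV939. The 7 listed genes of GABA synthesis, release and uptake include the GABAergic markers GAD1, GAD2 and SLC32A1. With XAV939, 2 of 7 were past 2-fold lower and 0 higher at D5. At D10, 6 had enough UMIs, of which 1 was higher and 0 lower. The D10 sum therefore does not describe each marker, and the study reports slightly higher GAD1 and GAD2 with XAV939.

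Other genes of GABA signalling were read from lists. Of 9 further subunit genes, 3 had enough UMIs at D26 in GNRH1-high and TBR1/PPP1R17-positive cells, and 2 were past 2-fold lower in GNRH1-high cells, GABRG1 and GABRD (the δ subunit, 1 UMI against 33, with an interval that reached past 0). Of the 7 genes of GABA synthesis, release and uptake reported here, 6 had enough UMIs, 3 were past 2-fold higher in GNRH1-high cells and 0 were lower. The higher ones were GAD2 and GAD1, which make GABA from glutamate, at 173 against 1.62 CPM and 12.4 against 0.202 CPM, and SLC32A1, which loads GABA into vesicles, at 59.5 against 0.405 CPM. These 3 are also among the GABAergic markers used above, so they are not independent evidence of a direction. ABAT, which breaks GABA down, was at 156 CPM in GNRH1-high, 179 CPM in DLX-positive GNRH1-low and 146 CPM in TBR1/PPP1R17-positive cells.

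Genes of receptor clustering and chloride transport were within 2-fold between GNRH1-high and TBR1/PPP1R17-positive cells of D26. Of the 11 genes of clustering, assembly and trafficking reported here, 0 were past 2-fold, with a median log2 ratio of -0.20. GABARAP, a receptor-associated protein, was at 54.8 CPM in GNRH1-high and 73.3 CPM in TBR1/PPP1R17-positive cells, and GABARAPL2 at 571 and 599 CPM. Of 5 chloride transport genes 0 were past 2-fold, and SLC12A5, the chloride exporter KCC2, was at 84.1 CPM in GNRH1-high cells, with a log2 ratio over TBR1/PPP1R17-positive cells of 0.49 (0.36 to 0.61). Both genes of the metabotropic GABA-B receptor were within 2-fold at D26, with GABBR1 at 36.3 and 32.3 CPM. Since 15.1% of all genes were past 2-fold in this comparison, counts of 0 in lists this short are read as nothing particular to them. At D24, with 15.4% of all genes past 2-fold, 1 gene of each list was lower in GNRH1-high cells. GABBR2, the other GABA-B subunit, had 1 UMI (0.388 CPM) in GNRH1-high against 307 UMIs (7.05 CPM) in TBR1/PPP1R17-positive cells, with a log2 ratio of -4.18 (-9.49 to -1.69). SHISA7, an auxiliary protein of the receptor, was at 3.88 against 10.8 CPM (-1.48, -2.55 to -0.59), and CLCN2, a chloride channel, was at 1.55 against 3.49 CPM with an interval that includes 0 (-1.17, -3.06 to 0.22).

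**Figure D4:**
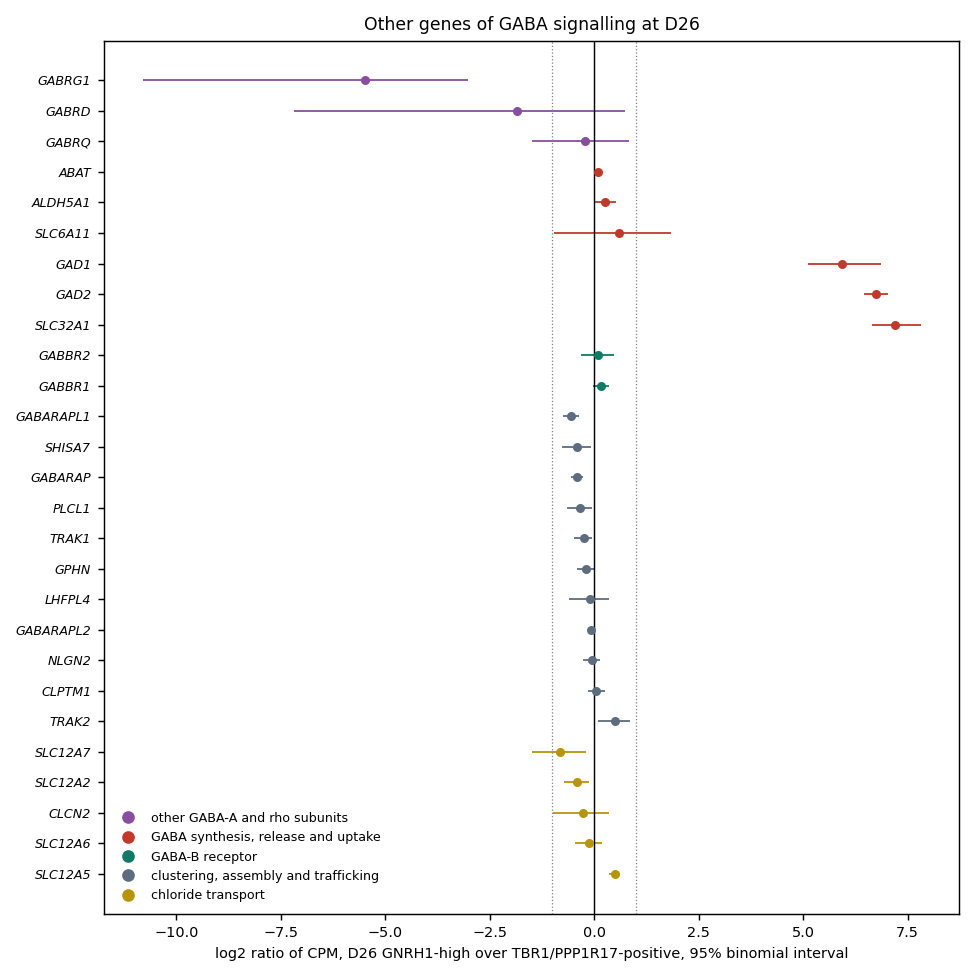
Log2 ratio of the level in GNRH1-high over TBR1/PPP1R17-positive cells at D26 (x axis) for listed genes of GABA signalling with at least 20 UMIs over both classes, with 95% binomial intervals and dotted lines at 2-fold. GAD1, GAD2 and SLC32A1 lie right of 2-fold, at 5.94 to 7.20, GABRG1 at -5.50 and GABRD at -1.84 lie left, and 0 of the genes for clustering, chloride transport and the GABA-B receptor lie past 2-fold.

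Patterns of the members were also compared over 14 groups, D0, both D5, both D10, D22 and 4 classes each of D24 and D26, as Pearson r of log2(CPM + 1) among 14591 genes. The groups share libraries and the counting of each set, r includes the contrast between the tagged and the later tables, and it is a description. GABRA2 was most like CCDC85A (r = 0.974), DLG2 (0.974) and ANKRD55 (0.971), and GABRB1 was most like ELMOD1 (0.969), LINC02197 (0.968) and GABRG1 (0.967). GABRA4 was most like LINC02197 (0.952), GABRG1 (0.951) and GABRB1 (0.949), so that GABRG1, of the same cluster, was among the nearest genes of both over these groups. At D26, TBR1/PPP1R17-positive cells and cells of no class held GABRA4 at 2.05 and 1.82 CPM and GABRB1 at 7.02 and 5.29 CPM. In the other groups GABRA4 was at or below 0.356 CPM and GABRB1 at or below 0.781 CPM. For GABRA4 and GABRB1, r thus rests largely on these classes of 1 library. GABRB2 was most like NXPH1 (0.974), NR4A2 (0.966) and SCGN (0.965), and GABRA3 like RAPGEF2, GABBR1 and MGAT5 (0.933 for the first). GABRA5 was nearest to GAL (0.947) and GABRG3 to SENP1 (0.974). Among the members, r was 0.906 between GABRA2 and GABRB1 and 0.0628 between GABRA2 and GABRB2. Over the 9 groups of D22 to D26 alone, among 12362 genes, the nearest genes were mostly others. GABRA2 was then most like CNTNAP2 (0.991), MAP2K6 (0.989) and BRINP1 (0.986), GABRB1 most like HS6ST3 (0.976), GABRA3 most like SCD5 (0.995) and GABRG3 most like ERV3-1 (0.991). For GABRA5, highest at D0 among the tagged conditions that are left out here, the nearest gene was WDTC1, at 0.823. LINC02197 for GABRA4 (0.983), ELMOD1 for GABRB1 (0.972) and NXPH1 for GABRB2 (0.967) were among the nearest 3 in both, while GABRG1 was not, at 0.964 with GABRA4 and 0.968 with GABRB1. Among the members, r was then 0.909 between GABRA2 and GABRB1 and -0.338 between GABRA2 and GABRB2.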

How the data were processed

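The authors ran Cell Ranger on 10x 3′ reads (GRCh38) and deposited its raw UMI counts, not normalized. Per the file headers, the later libraries (D22 to D26) came from version 3.1.0. Version 6.1.2 made the files of D0 to D10, 5 conditions pooled in 1 run and told apart by tags (95.1% to 95.6% of tag UMIs in each file were of the labelled tag). Cells were kept by the study's limits, at D22 to D26 at least 1500 UMIs and 1000 genes, complexity above 0.82 and under 20% mitochondrial UMIs. For D0 the listed complexity limit, above 0.85, keeps 1 of 1292 barcodes, so under 0.85 was used, which keeps 1008. Kept cells were 2419 of 2480 (D5_dSMADi), 2815 of 2919 (D5_XAV939), 2416 of 2778 (D10_dSMADi), 2168 of 2638 (D10_XAV939), 9523 of 9824 (D22), 9107 of 9905 (D24) and 11056 of 12171 (D26). The study gives all barcodes of D5 and D10 as analysed. No doublet caller was run, and mixed cells were set aside.

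UMIs were summed per library and class and divided by all UMIs of the group (CPM). Intervals are exact Poisson for CPM, exact binomial for the UMI split of a ratio and Clopper-Pearson for shares, all at 95%. They take UMIs as independent and cover counting error only. Genes with at least 20 UMIs over both groups were counted as past 2-fold, and a group at 0 was set at 3 counts over the group, which gives a bound. Shares were taken after thinning each cell to 1500 UMIs (10000 in the tagged conditions), and no kept cell was shallower. Ratios and thinning were checked on simulated counts. Genes of the lists are named if past 2-fold at D26 between GNRH1-high and TBR1/PPP1R17-positive cells with an interval that leaves out 1, or at 50 CPM in a class of D24 or D26, and those named beyond this rule were chosen after their values were seen. The 3 most like genes were taken among genes with at least 500 UMIs. The members and lists were chosen with earlier results of these data known, and some genes of the lists are not reported here. Day ratios within a class, the split of cells by GABRA2, D0 over D5_dSMADi, the ranges of GNRH1 and TBR1 and the likeness within D22 to D26 were added after seeing the data. Python 3.11.15, NumPy 2.4.6, SciPy 1.17.1 and pandas 2.3.3 were used.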

Additional observations from a re-analysis of the deposited data

Results flagged for a closer look

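Some members moved in opposite directions in 2 settings of the same comparison, and none of these differences was tested, since each condition is 1 library. The log2 ratio of GABRA2 with XAV939 was 0.26 (-0.15 to 0.68) at D5 and -0.48 (-0.91 to -0.06) at D10. For GABRA5 the ratio of GNRH1-high over TBR1/PPP1R17-positive cells was -1.56 (-6.90 to 0.98) at D24, where 1 UMI was in GNRH1-high cells, and 1.38 (0.45 to 2.23) at D26. Between GNRH1-high and DLX-positive GNRH1-low cells, GABRA3 was at 0.63 (-0.85 to 2.41) at D24 and -0.16 (-0.58 to 0.26) at D26, and GABRB2 at -0.52 (-1.90 to 0.96) at D24 and 0.60 (0.25 to 0.96) at D26. In each of the 4, the interval of at least 1 setting held 0.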

How the results depend on the processing

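Alternatives were other filters on cells, other limits for the classes, mixed cells kept in, a denominator without mitochondrial and ribosomal genes, leaving out the 5% of cells with the most UMIs, equal weight for each cell and thinned cells. Of 106 counts of members past 2-fold, 95 stayed within 1.5 times, and no ratio past 2-fold changed sign. After thinning, the count of GNRH1-high over TBR1/PPP1R17-positive cells was 3 in place of 6 at D26 and 1 in place of 4 at D24, and that of DLX-positive GNRH1-low over TBR1/PPP1R17-positive cells at D24 was 1 in place of 3, with fewer UMIs to count. For GNRH1-high over DLX-positive GNRH1-low cells the count went from 0 to 1 with equal weight per cell at D26 and at D24, to 2 at D26 with at least 5 UMIs of TBR1 and PPP1R17 or with mixed cells kept in, and to 1 at D24 with at least 5 UMIs of DLX, and the cause was not tested. D5_XAV939 over D5_dSMADi had 2 in place of 1 with the stricter filter or equal weight, and D10_XAV939 over D10_dSMADi had 1 in place of 0 without a filter. Of 546 log2 ratios of members, 520 stayed within the interval of the main value. That of GABRA2 at D26 between GNRH1-high and TBR1/PPP1R17-positive cells ran from -5.24 to -2.44, the latter with mixed cells kept in, and that of GABRB2 from 5.93 to 6.64. With at least 4 or 100 UMIs in place of 20, the share of all genes past 2-fold moved by over 1.5 times in 8 of 20 cases: to 11.5% or 0.631% for GNRH1-high over DLX-positive GNRH1-low cells at D26, 14.7% or 1.09% at D24, 11.5% or 2.66% with XAV939 at D5 and 16.1% or 5.81% at D10. The D0 levels of the 7 members stayed within their intervals under both other filters. No paired analysis was possible because each condition is 1 library with no replicate number, and the days are separate conditions rather than replicates. Members under 20 UMIs in a class comparison could not be resolved at this depth.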
